A study of Homo sapiens with 7 samples.

Results

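The HOX genes encode homeodomain transcription factors and lie in 4 clusters, HOXA to HOXD. The 38 protein-coding members described here were found by symbol among the 26364 gene symbols of the deposited tables. Membership rests on the gene names and uses no measured value. RNA was sequenced in 7 libraries of U937, a human line of acute monocytic leukaemia whose labels give bone marrow as its tissue. MT_mock (3 libraries) was the U937 MT line, taken here as the parental cells. B412_mock (2 libraries) was U937 B412, a derivative that expresses the fusion protein PLZF/RARA when exposed to zinc. B412_GSK126 (2 libraries) was the same derivative given 2.5 µM GSK126, an inhibitor of the histone methyltransferase EZH2, for 96 h. All 3 groups had 0.1 mM ZnSO4, and a 24 h zinc pretreatment is given for B412 cells. B412 cells without zinc were not analysed here, so the fusion and other differences between the lines cannot be told apart. Whether B412 is a single clone is not given in the sources used here.

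Each HOX cluster is read in order along the body axis during development, with low paralogue numbers at the 3′ end active towards the head and high numbers at the 5′ end active towards the tail. The clusters are held silent by Polycomb complexes, among them the EZH2 complex that methylates lysine 27 of histone H3, and kept active by Trithorax proteins such as KMT2A (MLL). In blood, HOXA and HOXB genes are read in stem and early progenitor cells and are shut down as myeloid cells mature. HOXA9 with its cofactor MEIS1 drives many acute myeloid leukaemias, and U937 is known to carry the PICALM-MLLT10 fusion, of a class of leukaemias known for persistent HOXA expression. PLZF, the protein of ZBTB16, is a repressor known to act on HOX genes together with Polycomb proteins.

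Total counts lay between 12736244 and 14848130 per library, and CPM values put the counts on a common scale by that total. The limit that a count of 0 allows was set at 3 counts, which lay between 0.202 and 0.236 CPM. ZBTB16, whose 5′ part the fusion contains, was read at 4, 0 and 0 counts in MT_mock, at 22 and 28 in B412_mock, and at 7 and 36 in B412_GSK126. Counts per gene do not part fusion transcripts from those of the normal gene. The leading principal component of log2 CPM split the 7 libraries into 2 sets, each with all 3 groups. Set 2 was replicate 3 of MT_mock together with replicate 2 of each B412 group, and set 1 was the other 4 libraries. Nothing in the labels names a batch. Results are therefore given from the main edgeR fit, on group alone, and from a fit with an added term for the library set. Since the sets were drawn from these same counts, p-values with the term may be too small. The labels do not say whether replicates were separate cultures, so p-values measure only how far these libraries vary, a spread that may be technical.

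U937 cells read HOX genes in the same pattern in all 3 groups. A gene is called read here where every library of a group held at least 10 counts. By that rule 14 of the 38 HOX genes were read, 11 showed traces, and 13 had no count in any library. The same 14 genes were read in MT_mock, in B412_mock and in B412_GSK126. Of all 26364 symbols, 44.4% were read in MT_mock, 44.8% in B412_mock and 45.6% in B412_GSK126. The HOXA cluster was read almost whole, with 9 of its 10 members read and HOXA2 as a trace. HOXC followed with 4 of 9: HOXC4, HOXC5 and HOXC6 at its 3′ end, and HOXC10 further towards the 5′ end. Beyond HOXC10, the genes at the 5′ end itself, HOXC11, HOXC12 and HOXC13, were traces only. HOXB had 1 of 10, HOXB3, and HOXD none of 9.

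**Figure D1:**
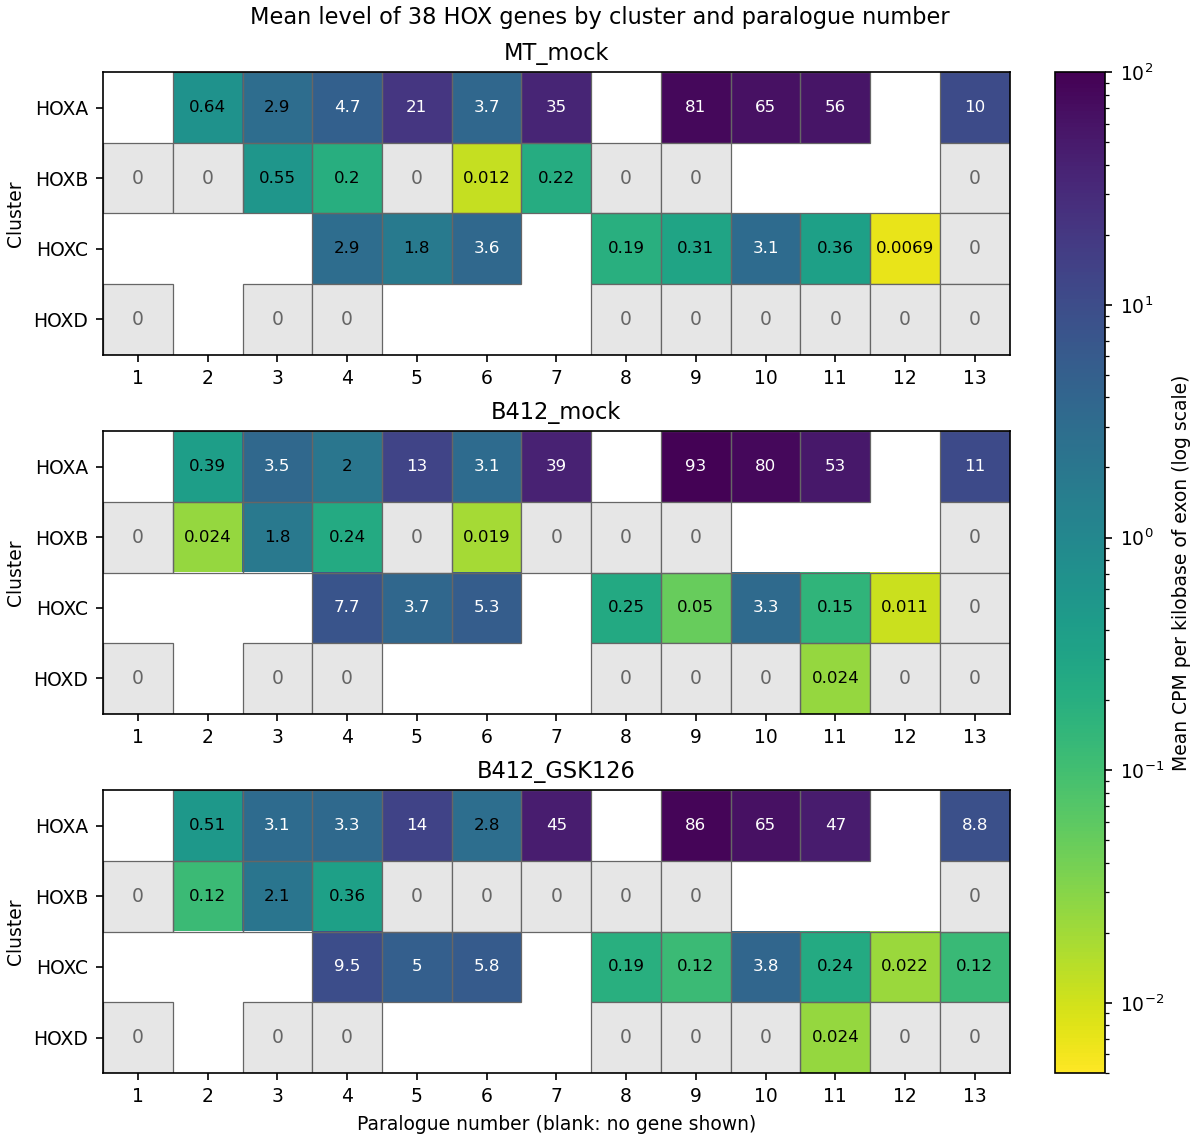
Mean level of the 38 HOX genes in each group, in CPM per kilobase of exon on a log colour scale, by cluster (rows) and paralogue number (columns). Grey cells marked 0 had no count in any library of the group. HOXA9, HOXA10 and HOXA11 are the darkest cells in each panel, and HOXC4 deepens from 2.91 in MT_mock to 7.74 in B412_mock and 9.46 in B412_GSK126.

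HOXA genes gave 88.8 to 96.7% of all HOX counts in each library. HOXC gave 2.93 to 8.75%, HOXB 0.324 to 2.44%, and HOXD at most 1 count. All HOX genes together were a small share of the transcriptome, between 0.0403 and 0.123% of the counts. That share was 0.0403, 0.0518 and 0.123% in the 3 MT_mock libraries, 0.0562 and 0.104% in B412_mock, and 0.0688 and 0.0799% in B412_GSK126. It was higher in each set 2 library than in every set 1 library. Fewer cells reading a gene and less RNA of it per cell cannot be told apart in these bulk libraries.

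Scaled to exon length, so that genes can be set against each other, the central and 5′ HOXA genes led. HOXA9 stood highest, at 81.2 ± 52.5 CPM per kilobase in MT_mock (SD, n = 3), 93.0 ± 47.6 in B412_mock (n = 2) and 86.4 ± 8.82 in B412_GSK126 (n = 2). HOXA10 came next at 65.1 ± 51.2, 80.3 ± 51.9 and 65.1 ± 22.8. HOXA11 followed at 56.2 ± 51.7, 52.8 ± 34.7 and 46.5 ± 9.15. HOXA7 and HOXA5 completed the leading 5, which had the same order of means in each group. Of the HOXA7 exon bases 62.5% lie opposite exons of the noncoding gene HOXA-AS3. Strand is not marked in these libraries, so the part of the HOXA7 level that comes from HOXA-AS3 is uncertain. HOXA7 lay at 35.2 ± 16.8 in MT_mock and HOXA5 at 20.7 ± 4.75. In MT_mock the SD ranges of HOXA9, HOXA10, HOXA11 and HOXA7 all overlapped, but SD is a spread between libraries and does not test the order within them. HOXA9 stood above HOXA10, and HOXA10 above HOXA11, in every library. HOXA7 was above HOXA11 in every set 1 library and below it in every set 2 library. In MT_mock HOXA7 was at 28.5, 54.3 and 22.8 CPM per kilobase, and HOXA11 at 24.5, 28.3 and 116. HOXC4 moved up the order, from place 11 in MT_mock to 7 in B412_mock and 6 in B412_GSK126, and HOXB3 stood at 15, 14 and 14.

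HOXA9 and HOXA10, the HOXA genes best known in leukaemia, were read deeply in every library. HOXA9 was at 87.1, 125 and 290 CPM in MT_mock, 122 and 261 in B412_mock, and 165 and 191 in B412_GSK126. HOXA10 was at 109, 116 and 392 CPM in MT_mock, 138 and 369 in B412_mock, and 155 and 256 in B412_GSK126. In each group the set 2 library was the highest, and the 3 groups overlapped for both genes. The tables also list a read-through transcript, HOXA10-HOXA9, whose counts came to 75.0 to 99.5% of those of HOXA9. Reads of shared exons may have been counted for both, so the share of HOXA9 counts from read-through transcripts is uncertain.

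HOXA11 and HOXA13, known for patterning the limb and the urogenital tract, lie at the 5′ end. HOXA11 was at 56.3, 65.0 and 266 CPM in MT_mock, 65.0 and 178 in B412_mock, and 91.9 and 122 in B412_GSK126. HOXA13 had the widest range of the read genes as a ratio of its highest to its lowest library, at 9.29, 17.3 and 128 CPM in MT_mock, 17.5 and 92.3 in B412_mock, and 14.2 and 74.6 in B412_GSK126. For HOXA13 every set 2 library stood above every set 1 library, while the groups overlapped.

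The 3′ and central HOXA genes covered a wide range of levels. HOXA3, needed for the thymus and pharyngeal organs, was at 12.1, 13.6 and 5.67 CPM in MT_mock, 15.6 and 10.3 in B412_mock, and 16.0 and 7.05 in B412_GSK126. HOXA4 was at 4.78, 9.50 and 10.6 CPM in MT_mock, 3.14 and 4.01 in B412_mock, and 9.31 and 2.30 in B412_GSK126. It was the only tested HOX gene whose 2 B412_mock libraries both lay below all 3 MT_mock libraries. HOXA5, a regulator of lung and axial development, was at 28.6, 31.2 and 43.3 CPM in MT_mock, 28.7 and 14.3 in B412_mock, and 33.7 and 12.3 in B412_GSK126. HOXA6 was at 3.37, 2.08 and 5.45 CPM, 2.20 and 4.01, and 1.83 and 3.71 in the same order. Neither gene parted the groups. HOXA7 was at 57.6, 109 and 46.0 CPM in MT_mock, 108 and 48.7 in B412_mock, and 123 and 59.7 in B412_GSK126. HOXA2, a hindbrain and branchial arch gene, had 14, 29 and 7 counts, then 15 and 3, then 22 and 3, which is under the rule for a read gene in each group.

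In the HOXB cluster only HOXB3, a gene of the hindbrain and of haematopoietic progenitors, was read. HOXB4, known for expanding haematopoietic stem cells, gave counts of 16, 13 and 4 in MT_mock, of 18 and 5 in B412_mock, and 29 and 8 in B412_GSK126. HOXB2 had no count in MT_mock, 0 and 1 in B412_mock, and 3 and 2 in B412_GSK126. HOXB7 had 13 counts in MT_mock replicate 2 and none in the other 6 libraries, and HOXB6 had 1 count in MT_mock replicate 2 and 1 in B412_mock replicate 2. HOXB1, HOXB5, HOXB8, HOXB9 and HOXB13 had no count in any library. The gap between HOXB3 and the rest of its cluster held in all 3 groups.

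In the HOXC cluster every member had at least 1 count somewhere. HOXC6 was at 12.5, 8.67 and 13.7 CPM in MT_mock, 12.96 and 21.8 in B412_mock, and 15.1 and 22.9 in B412_GSK126. HOXC10, a gene of the hindlimb and lumbar spinal cord, was at 3.03, 2.77 and 12.3 CPM, then 3.53 and 9.13, then 4.69 and 10.0. Between these, HOXC8 reached at most 10 counts in a library and HOXC9 at most 13, both with their highest counts in set 1. HOXC11 gave counts of 28, 19 and 5 in MT_mock, of 10 and 3 in B412_mock, and 17 and 4 in B412_GSK126. HOXC12 had at most 1 count in a library. HOXC13 had 8 counts in B412_GSK126 replicate 1 and none elsewhere.

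The HOXD cluster was silent at this depth. HOXD1, HOXD3, HOXD4, HOXD8, HOXD9, HOXD10, HOXD12 and HOXD13 had no count in any library, which allows each at most 3 counts per library. HOXD11 had 1 count in B412_mock replicate 2 and 1 in B412_GSK126 replicate 2. These 2 libraries are both of set 2.

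Read and silent HOX genes are set side by side here by their promoter sequence. RefSeq windows (GRCh38.p14) of the 250 bases before the transcription start were matched for 20 of the 38 members, in 26 distinct windows. Counting CG pairs, the sites of DNA methylation, the median window held 19 in read HOX genes, 21 in those at 0, and 11 over all 34943 promoter windows. The median GC content was 56.8% in read genes and 61.6% in genes at 0, against 58.0% over all windows. The read class holds 16 windows of 10 genes, 7 of them from HOXA3, so its medians lean on that gene. Its windows are all of HOXA genes, apart from that of HOXC4 and HOXC5. The read genes HOXA5, HOXB3, HOXC6 and HOXC10 had no window. The class at 0 holds 8 windows, all of HOXD genes apart from HOXB1. Read against silent is therefore nearly HOXA against HOXD here. The following 4 windows show a gene read deeply (HOXA9) and a gene called higher in B412 cells with the library-set term (HOXC4). The others are of a CG-poor and a CG-rich gene of the HOXD cluster with no count. Capitals mark each CG pair.

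HOXA9, chr7:27165538-27165787, minus strand: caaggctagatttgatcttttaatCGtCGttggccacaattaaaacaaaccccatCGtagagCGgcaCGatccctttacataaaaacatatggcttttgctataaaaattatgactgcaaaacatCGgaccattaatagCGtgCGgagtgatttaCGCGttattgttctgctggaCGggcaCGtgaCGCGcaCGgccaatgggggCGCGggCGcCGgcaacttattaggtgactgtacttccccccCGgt
HOXC4, chr12:54016638-54016887, plus strand: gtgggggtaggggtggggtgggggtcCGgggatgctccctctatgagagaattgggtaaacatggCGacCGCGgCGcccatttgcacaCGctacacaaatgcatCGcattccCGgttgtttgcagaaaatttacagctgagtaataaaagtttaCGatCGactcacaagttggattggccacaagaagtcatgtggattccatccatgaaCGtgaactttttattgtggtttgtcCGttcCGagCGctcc
HOXD4, chr2:176151300-176151549, plus strand: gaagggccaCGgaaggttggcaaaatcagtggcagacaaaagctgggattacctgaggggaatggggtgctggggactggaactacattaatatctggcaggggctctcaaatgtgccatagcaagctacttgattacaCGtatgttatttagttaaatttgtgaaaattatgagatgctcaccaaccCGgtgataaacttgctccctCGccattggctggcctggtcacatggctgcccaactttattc
HOXD8, chr2:176129455-176129704, plus strand: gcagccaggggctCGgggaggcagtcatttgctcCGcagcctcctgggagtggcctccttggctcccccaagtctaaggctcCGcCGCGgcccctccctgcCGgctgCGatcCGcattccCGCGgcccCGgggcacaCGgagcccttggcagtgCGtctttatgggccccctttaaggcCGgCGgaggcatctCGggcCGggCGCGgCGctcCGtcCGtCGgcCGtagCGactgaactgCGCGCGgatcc

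The HOXA9 window held 20 CG pairs and 48.8% GC, and the HOXC4 window 14 and 50.8%. The silent HOXD4 window held 4 CG pairs, and the equally silent HOXD8 window held 28. The RefSeq window of HOXC5 is the same stretch as that of HOXC4, so RefSeq lists a shared start for both. The letter matches below are given as windows that held a match on either strand. The core hexamer of nuclear receptor sites, AGGTCA, was in 0 of the 26 HOX windows and in 12.1% of all windows. The composite HOX and TALE motif TGATNNAT was in 3 HOX windows (11.5%) and in 6.49% of all windows. TATAAA was in 5 HOX windows (19.2%), those of HOXA9, HOXA3 and HOXD13 and both of HOXA10, against 10.8% of all. A match is a description of the letters only.

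B412_mock against MT_mock asks what differs between the line with the fusion and the parental line. With the library-set term HOXB3 and HOXC4 were called higher in B412_mock, while the main fit called neither. HOXC5, next to HOXC4, had higher values that did not pass in either fit. Counts of HOXB3 were 49, 48 and 50 in MT_mock against 148 and 147 in B412_mock, or 3.30, 3.33 and 3.68 CPM against 11.6 and 10.9. The libraries of each group lay close together, and the groups were far apart in both sets. HOXC4, a gene of lymphoid as well as of axial expression, was at 8.76, 5.13 and 5.90 CPM in MT_mock against 22.8 and 12.3 in B412_mock. Both B412_mock libraries stood above all 3 of MT_mock. HOXC5 was at 2.29, 3.54 and 3.68 CPM against 6.75 and 6.68, again with no overlap.

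**Figure D2:**
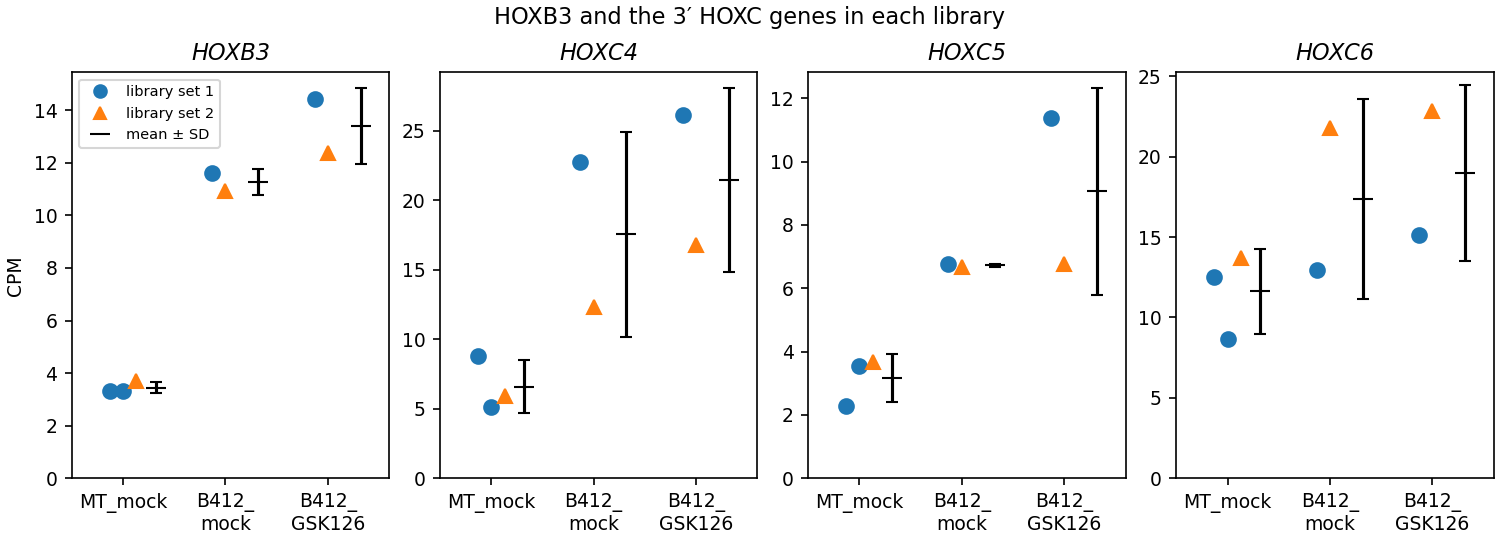
CPM of HOXB3, HOXC4, HOXC5 and HOXC6 in each library, by group on the horizontal axis, with circles for library set 1, triangles for set 2, and the mean ± SD of each group in black. HOXB3, HOXC4 and HOXC5 lie higher in both B412_mock libraries than in all 3 MT_mock libraries, while HOXC6 overlaps between these groups.

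With the library-set term HOXB3 rose 3.25-fold (log2 1.70 ± 0.306 SE, edgeR adjusted p = 0.0149) and HOXC4 rose 2.71-fold (log2 1.44 ± 0.300 SE, edgeR adjusted p = 0.0296). HOXC5 had a fitted ratio of 2.11 (log2 1.07 ± 0.401 SE, edgeR adjusted p = 0.228) and HOXC6 one of 1.35 (log2 0.43 ± 0.262 SE, edgeR adjusted p = 0.499). These 2 calls, both higher, were among 17 tested HOX genes, and 2.35% of all 13521 tested genes were called with the term. The groups of libraries did not overlap in 3 of the 17 HOX genes on the higher side and in 1 on the lower, against 5.7% of all tested genes higher and 5.43% lower. Within library sets, the log2 difference of HOXB3 was 1.76 in set 1 and 1.53 in set 2, and that of HOXC4 was 1.74 and 1.04.

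The main fit, on group alone, called none of the HOX genes and 0% of all genes. In it the log2 difference of HOXB3 was 1.67 ± 0.387 SE and that of HOXC4 1.40 ± 0.511 SE, each with an edgeR adjusted p of 1. At an unadjusted p under 0.05 that fit held 2 HOX genes and 343 genes in all. DESeq2 on group alone called HOXB3 (adjusted p = 0.00745) but not HOXC4, and limma-voom on group alone called no gene. With the term, both HOX calls were lost without MT_mock replicate 2 (edgeR adjusted p = 0.0549 for HOXB3 and 0.0833 for HOXC4). They were also lost without B412_mock replicate 1 (0.456 and 0.829) and without replicate 2 (0.154 and 0.127).

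The HOXA genes gave no call in this comparison. With the term the log2 difference was 0.06 ± 0.273 SE for HOXA9, 0.14 ± 0.216 for HOXA10 and -0.01 ± 0.297 for HOXA13. These 3 estimates lie within 1 SE of 0. HOXA4 had a log2 difference of -1.22 ± 0.583 SE (edgeR adjusted p = 0.372), with -1.07 within set 1 and -1.37 within set 2. HOXA5 had -0.73 ± 0.417 SE (edgeR adjusted p = 0.479), nearly all of it from set 2, where the difference was -1.59 against -0.06 in set 1. Over the 17 tested HOX genes the median log2 difference was 0.06 with 9 above 0 (11 in the main fit), and over all tested genes it was -0.01 with 48.9% above 0. The 17 include every read gene and HOXA2, HOXB4 and HOXC11, so genes silent in all libraries have no estimate.

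**Figure D3:**
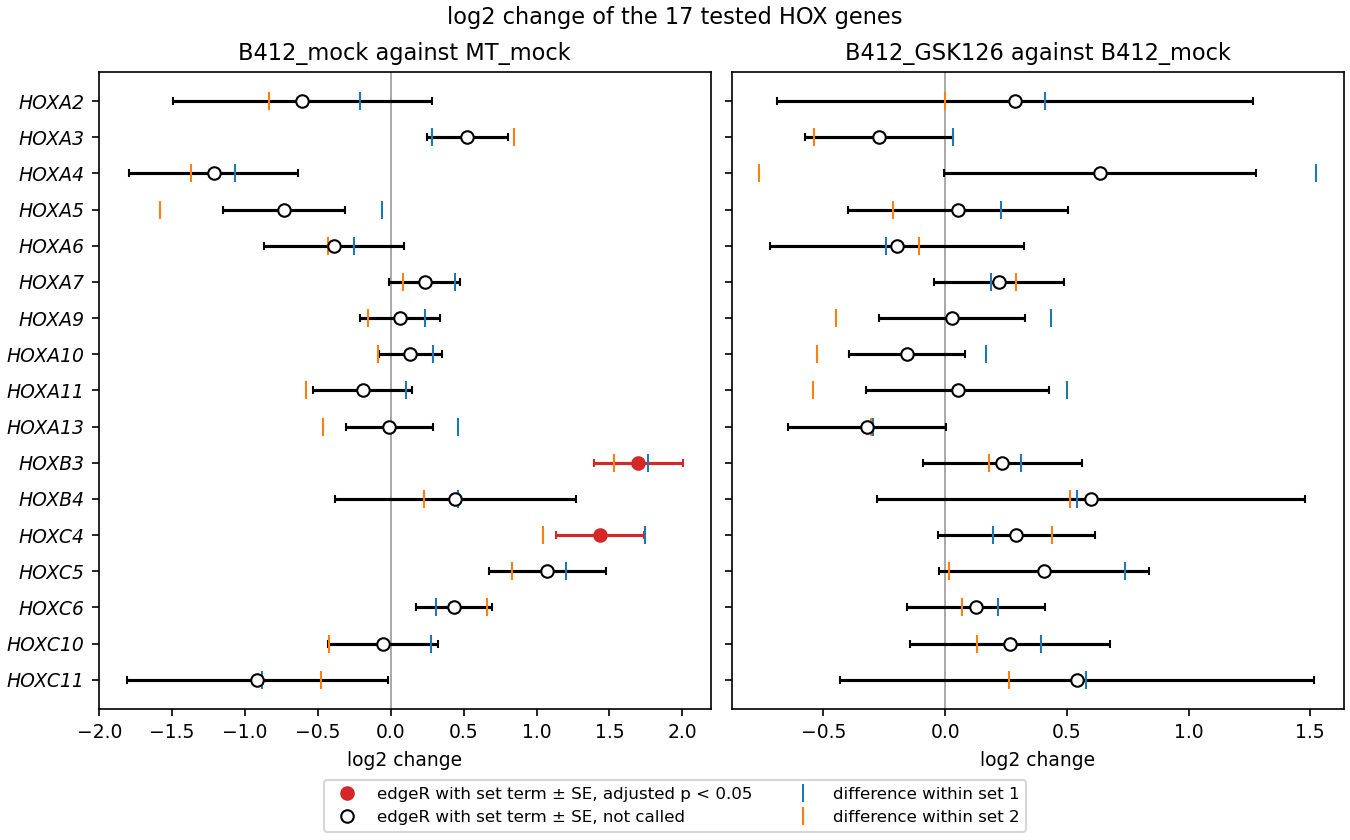
Change of the 17 tested HOX genes on the log2 scale, for B412_mock against MT_mock (left) and B412_GSK126 against B412_mock (right), from edgeR with the library-set term, with bars of 1 SE and ticks for the differences within set 1 and set 2. HOXB3 and HOXC4 are the filled points on the left, at 1.70 and 1.44, and no point is filled on the right.

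HOXC4, HOXC5 and HOXC6 share exons, which limits how far their counts can be parted. In the GENCODE 29 annotation 17.8% of the exon bases of HOXC4 lie in exons of HOXC6 and 11.2% in exons of HOXC5. Of the exon bases of HOXC5, 14.4% lie in exons of HOXC4, and 28.9% in exons of a gene outside the lists used here. HOXB3 shares 5.81% with HOXB6, which had at most 1 count in a library, and 2.13% with HOXB4, which had 4 to 29. On the opposite strand HOXB3 shares 5.02% with HOXB-AS1 and 1.03% with HOXB-AS3. The libraries do not mark strand. HOXB-AS1 itself gave counts of 2, 0 and 5 in MT_mock, of 8 and 21 in B412_mock, and 4 and 21 in B412_GSK126, far under those of HOXB3 in each library. HOXB-AS3 was above HOXB3 in the 4 libraries of set 1 and below it in set 2, and its counts are given with the noncoding genes. How many HOXB3 counts come from the shared bases was not tested.

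B412_GSK126 against B412_mock asks what the EZH2 inhibitor changed in cells with the fusion. No HOX gene was called, and the HOX genes read were the same 14 with and without the inhibitor. HOXB3 was at 14.4 and 12.4 CPM with GSK126 against 11.6 and 10.9 without it, and HOXC5 at 11.4 and 6.75 against 6.75 and 6.68. These were the 2 genes of the 17 tested whose libraries did not overlap, both higher, against 7.33% of all tested genes higher and 5.18% lower. For HOXC5 the gap rests on set 1, with a log2 difference of 0.74 there and 0.01 in set 2. HOXC4 was at 26.1 and 16.8 CPM with GSK126 against 22.8 and 12.3.

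With the library-set term the log2 change was 0.24 ± 0.326 SE for HOXB3, 0.29 ± 0.324 for HOXC4 and 0.41 ± 0.433 for HOXC5, each with an edgeR adjusted p of 1. Each is about its own SE in size, so these values show neither a rise nor its absence. HOXA9 changed sign between sets, with 0.43 in set 1 and -0.45 in set 2, and HOXA4 likewise with 1.52 and -0.76. HOXA13 was at -0.32 ± 0.324 SE. Of the 17 tested HOX genes 13 had an estimate above 0, with a median of 0.22 on the log2 scale, against 51.8% above 0 and a median of 0.01 over all tested genes. In the main fit 11 of the 17 were above 0. Calls over all genes were 0% in edgeR with and without the term. An unadjusted p under 0.05 was reached by 0 HOX genes in both fits, and by 32 genes in all without the term and 464 with it. DESeq2 and limma-voom called no HOX gene either, and with the term they called 4 and 1 genes in all.

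The silent HOX genes were also looked at by counts under the inhibitor. Of 38 HOX genes, 16 had no count in any MT_mock library, 15 had none in B412_mock, and 15 had none in B412_GSK126. HOXC13 left that class in 1 of the 2 B412_GSK126 libraries with 8 counts, and HOXB6 entered it. HOXB2 had 0 and 1 counts without and 3 and 2 with GSK126, at or under the limit that a count of 0 allows. No HOXD gene gave more than 1 count with GSK126.

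B412_GSK126 against MT_mock shares libraries with both comparisons above and is therefore no separate evidence. HOXB3 was 3.82-fold higher (log2 1.93 ± 0.304 SE, edgeR with the term, adjusted p = 0.00927) and HOXC4 3.31-fold higher (log2 1.73 ± 0.299 SE, edgeR adjusted p = 0.0147). HOXC5 had a fitted ratio of 2.79 (log2 1.48 ± 0.396 SE, edgeR adjusted p = 0.0912), with 1.94 within set 1 and 0.85 within set 2. The 2 calls stand beside 1.9% of all tested genes. Libraries did not overlap for 4 of the 17 tested HOX genes, HOXB3, HOXC4, HOXC5 and HOXC6, all higher. None of the 17 lay apart on the lower side. Of all tested genes 7.08% lay apart on the higher side and 4.98% on the lower. The main fit called 0% of genes and gave HOXB3 an edgeR adjusted p of 0.887, with 3 HOX genes and 268 genes in all at an unadjusted p under 0.05. Without B412_GSK126 replicate 1 the calls with the term were lost (edgeR adjusted p = 0.114 for HOXB3 and 0.111 for HOXC4). They were also lost without B412_GSK126 replicate 2 (0.0502 and 0.0614), and that of HOXC4 without MT_mock replicate 2 (0.0507).

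HOX genes differed between the 2 library sets about as often as all genes did, and no HOXA gene was called between groups. The share of HOX genes that differed between sets, 64.7% of 17 tested, lay near that of all tested genes, 61.5%. The sets were drawn from these same counts, so the p-values between them are no independent test. Relative to set 1, set 2 had less of HOXA2 and HOXA3 at the 3′ end and more of HOXA9 to HOXA13 towards the 5′ end. HOXA2 was 4.82-fold lower in set 2 (log2 -2.27 ± 0.781 SE, edgeR adjusted p = 0.0244) and HOXA3 2.25-fold lower (log2 -1.17 ± 0.243 SE, edgeR adjusted p = 0.00128). At the other end HOXA10 was 2.31-fold higher (log2 1.21 ± 0.180 SE), HOXA11 2.41-fold higher (log2 1.27 ± 0.285 SE) and HOXA13 6.01-fold higher (log2 2.59 ± 0.248 SE, edgeR adjusted p = 5.7e-06). The middle of the cluster was mixed. HOXA4, HOXA5 and HOXA6 did not pass, HOXA7 was 2.26-fold lower and HOXA9 1.76-fold higher.

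**Figure D4:**
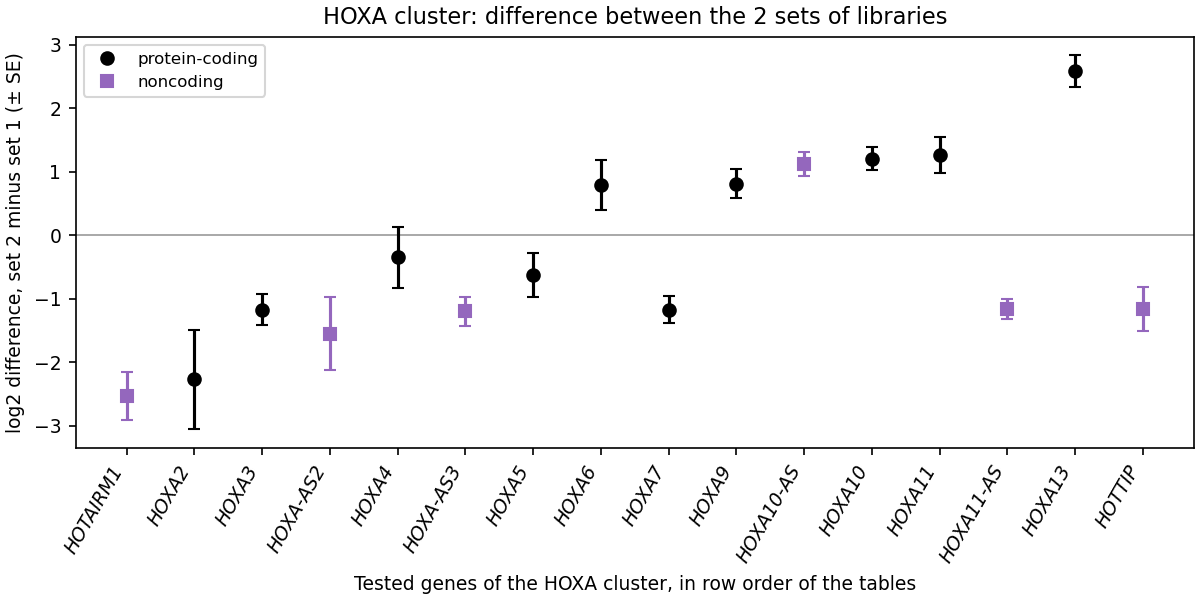
Difference between library set 2 and set 1 in the tested genes of the HOXA cluster, on the log2 scale with 1 SE, in the order of the deposited tables from the 3′ to the 5′ end, with circles for protein-coding and squares for noncoding genes. The protein-coding genes run from -2.27 at HOXA2 to 2.59 at HOXA13, while HOXA11-AS and HOTTIP at the 5′ end lie at -1.16.

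In the other clusters HOXC10 was higher in set 2 (log2 1.41 ± 0.310 SE, edgeR adjusted p = 0.00188), and HOXB4, HOXC4 and HOXC11 were lower, at -1.98, -0.73 and -2.16. HOXB3 did not differ detectably between sets (log2 -0.22 ± 0.259 SE, edgeR adjusted p = 0.482). In all, 5 of the 17 tested HOX genes were higher in set 2 and 6 lower, beside 4248 and 4072 of the 13521 tested genes. The sets were defined from these counts, so a difference between them is partly built in. What the sets stand for was not tested, since no label names it.

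The noncoding genes of the HOXA cluster did not all move with their coding neighbours between the sets. HOTAIRM1, a myeloid noncoding RNA at the 3′ end, was 5.80-fold lower in set 2 (log2 -2.54 ± 0.376 SE). HOXA-AS2 and HOXA-AS3 were lower as well, at -1.55 and -1.20, and HOXA10-AS was higher at 1.12, with HOXA9 and HOXA10. HOXA11-AS, read at 2328, 2955 and 1376 counts in MT_mock, 2181 and 1280 in B412_mock, and 2282 and 891 in B412_GSK126, was 2.24-fold lower and HOTTIP likewise, both beside genes that were higher in set 2. The ratio of HOXA11 to HOXA11-AS counts was 0.359, 0.317 and 2.62 in MT_mock, 0.380 and 1.87 in B412_mock, and 0.550 and 1.84 in B412_GSK126. It was under 1 in each set 1 library and over 1 in each set 2 library. Of the HOXA11 exon bases 31.1% lie opposite HOXA11-AS, and 62.5% of those of HOXA7 lie opposite HOXA-AS3. Reads there cannot be assigned to a strand. HOXA-AS3 gave counts of 817, 1463 and 683 in MT_mock, 1316 and 555 in B412_mock, and 1562 and 645 in B412_GSK126. Those of HOXA7 were similar in each library, at 855, 1579 and 624, then 1375 and 656, then 1678 and 804. How many HOXA7 counts come from HOXA-AS3 transcripts was not tested.

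None of the cluster noncoding genes was called between groups in edgeR with or without the term. Of 30 names looked for, 23 were found, 10 were tested and 10 had no count. HOXB-AS3 gave counts of 200, 117 and 41 in MT_mock, of 227 and 75 in B412_mock, and 240 and 95 in B412_GSK126 (B412_mock against MT_mock log2 0.75 ± 0.312 SE, edgeR adjusted p = 0.291). HOXC-AS3 was read only in the B412 groups by the rule of 10 counts, at 12 and 13, then 11 and 11, against 7, 2 and 11 in MT_mock. That difference lies close to the count minimum. HOTAIR, in the HOXC cluster, had 17, 4 and 8 counts, then 18 and 11, then 8 and 11.

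MIR196B, the only cluster miRNA gene with counts in all 7 libraries, lies within exons of HOXA9. It gave counts of 7, 8 and 10 in MT_mock, of 9 and 6 in B412_mock, and 5 and 3 in B412_GSK126. Libraries primed at poly(A) tails measure such host transcripts rather than the mature miRNA. Its mature form is shown with that of its HOXB and HOXC counterparts MIR196A1 and MIR196A2, which had no count, because both share 1 seed (bases 2 to 8, in capitals) and miR-196 is known to target HOX transcripts.
hsa-miR-196b-5p: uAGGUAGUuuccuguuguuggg
hsa-miR-196a-5p: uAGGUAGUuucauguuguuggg

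Of the protein-coding genes that flank the clusters, 16 of 19 names were found and 11 tested. CBX5, which encodes the heterochromatin protein HP1 alpha and lies beside the HOXC cluster, was the only one called. It was at 243, 191 and 211 CPM in MT_mock, 309 and 410 in B412_mock, and 300 and 385 in B412_GSK126. CBX5 in both B412 groups lay above all of MT_mock, but in B412_GSK126 against MT_mock it was not called in either fit. In B412_mock against MT_mock it rose 1.60-fold with the term (log2 0.68 ± 0.154 SE, edgeR adjusted p = 0.0443), and in the main fit its adjusted p was 1. HNRNPA1, an RNA-binding protein gene on the same side, was at log2 0.44 ± 0.153 SE (edgeR adjusted p = 0.191). On the HOXA side, SKAP2 was at -0.35 and HIBADH at -0.42, and neither passed. The other tested flanking genes, EVX1, CALCOCO1, CALCOCO2, SMUG1, ATP5G2, MTX2 and KIAA1715, lay between -0.44 and 0.83 and did not pass either.

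The cofactors and regulators of HOX genes gave no call between groups in either edgeR fit. Of the 9 TALE cofactors, which bind DNA with HOX proteins, 6 were tested. MEIS1 gave counts of 638, 965 and 1273 in MT_mock, of 872 and 1973 in B412_mock, and 1142 and 1321 in B412_GSK126, so that all groups read the partner of HOXA9 and overlapped. Of 24 activators of HOX transcription 21 were tested, and CDX1, CDX2 and CDX4, which turn on HOX genes in the embryo, had no count. All 23 Polycomb genes were tested. For B412_mock against MT_mock the median log2 difference with the term was 0.24 in the cofactors, 0.00 in the activators and 0.08 in the Polycomb genes, beside -0.01 over all genes. Of 10 leukaemia genes associated with HOX activity 8 were tested and none was called.

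EZH2, the target of GSK126, is given here for that role and not for its values. It was at 79.9, 91.2 and 25.9 CPM in MT_mock, 72.2 and 31.8 in B412_mock, and 86.0 and 48.0 in B412_GSK126. The groups overlapped, and each set 2 library was below each set 1 library. The difference between sets was -1.46 ± 0.181 SE on the log2 scale (edgeR adjusted p = 2.8e-05), and its part in the HOXA differences between sets was not tested.

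The labelled cell type was checked by markers. The myeloid genes CD33, SPI1, CEBPA, LYZ, CD4, ITGB2 and MPO were read. FCGR1A had 0 to 32 counts in a library, and CD14 and CSF1R had at most 9. Markers of other cell types were mixed. Of 4 T and NK cell markers, CD8A had no count, CD3D and CD3E had at most 4 counts in a library, and NKG7 was read in every library, at 346, 791 and 433 counts in MT_mock, 855 and 641 in B412_mock, and 1340 and 691 in B412_GSK126. Of 3 B cell markers, MS4A1 had no count and CD79A had 74 to 632 in a library. Of 5 fibroblast and epithelial markers, CDH1 had no count and COL1A1 reached 43. The summed level of the T and NK list ran from 23.3 to 54.8 CPM in MT_mock, from 47.7 to 67.1 in B412_mock and from 51.3 to 98.5 in B412_GSK126. That of the B cell list ran from 15.6 to 44.7, from 6.01 to 8.72 and from 6.16 to 7.35 CPM in the same order. Of 10 monocytic and myeloid markers 8 were tested, and 2 were lower in B412_mock than in MT_mock with the term. These were ITGB2 (log2 -2.54 ± 0.297 SE, edgeR adjusted p = 0.0041) and MPO (log2 -1.82 ± 0.143 SE, edgeR adjusted p = 0.000212). Of the 8 tested, 3 had an estimate above 0. FCGR1A was at log2 2.45 ± 1.02 SE (edgeR adjusted p = 0.291). Its counts were 12, 0 and 5 in MT_mock against 32 and 23 in B412_mock. CD33 and LYZ were at 0.15 and -0.28 and did not pass. The summed level of all 10 myeloid markers ran from 2465 to 8314 CPM in MT_mock, from 1074 to 2943 in B412_mock and from 1712 to 5546 in B412_GSK126. MPO was the largest part of each sum, at 1923, 1420 and 6023 CPM in MT_mock, 472 and 1772 in B412_mock, and 1003 and 4195 in B412_GSK126. CD79A, 1 of 3 B cell markers, was also lower in B412_mock than in MT_mock with the term (log2 -2.11 ± 0.401 SE, edgeR adjusted p = 0.0197). The part of these shifts in the HOXB3 and HOXC4 differences was not tested.

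The genes most like HOXB3 and HOXC4 were sought by Pearson's r of log2 CPM over the 7 libraries. For HOXB3 these were BOLA1 (r = 0.998), LINC00925 (r = 0.997) and GSPT2 (r = 0.996), and the nearest HOX gene was HOXC5 (r = 0.936). For HOXC4 they were SMIM19 (r = 0.989), PDCL3P4 (r = 0.989) and FEZ1 (r = 0.985), and the nearest HOX gene was HOXB3 (r = 0.917). The 7 points share their groups and their library sets, and these values are a description only.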

How the data were processed

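The 38 members, the gene lists and the tests were chosen with earlier results of these data known. By the symbol rule the tables hold 39 genes, and 1 of them is not reported here. For each group the authors deposited a table of raw counts, whole numbers listed by gene symbol and not normalized. Per the labels' protocols, SMART-Seq v3 cDNA was sheared before library preparation, with no molecular identifiers named, so floors cover counting error only. FastQC, Subread, featureCounts and the build hg19 are named in the submitters' processing notes, where no version or role is stated.

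Counts kept by filterByExpr (minimum count 10, minimum total 15; 13521 genes, 17 of them HOX) were scaled by TMM and tested in edgeR 4.0.16 (R 4.3.3; quasi-likelihood F test, robust, two-sided) on all 7 libraries, with Benjamini-Hochberg adjustment over all genes and a threshold of 0.05. A second fit added the library-set term. The term lowered edgeR's coefficient of variation from 58.3% to 21.9%, and the residual degrees of freedom from 4 to 3. SE is the log2 change over the square root of F. Differences within sets used log2(CPM + 0.15). DESeq2 1.42.0, limma-voom (limma 3.58.1) and the other settings given below were alternatives. The procedure was tested on simulated data. Exon lengths and overlaps came from GENCODE 29, a later build than the authors', and replaced RefSeq transcript lengths, so coordinates are given only for printed sequences. Every HOX member was accounted for, and other genes were named from fixed lists where called, or where read for cluster and flanking genes. Exceptions were ZBTB16, EZH2, MEIS1, the markers and the genes at 0, and the 3 genes nearest to HOXB3 and HOXC4.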

Additional observations from a re-analysis of the deposited data

How the results depend on the processing

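No direction of a HOX difference that was called reversed under any setting, and the HOX genes read numbered 17, 17 and 17 (MT_mock, B412_mock, B412_GSK126) at a minimum of 3 counts and 17, 18 and 19 at 1 count, against 14 in each at 10. For B412_mock against MT_mock, against 0 genes in the main fit, the genes called numbered 318 with the library-set term, 5 without a filter on low counts and 95 in DESeq2. With the term they were 326 with RLE size factors, 881 without the filter, 684 in DESeq2, 295 in limma-voom, 363 on the compared groups only, and 33 to 587 with a library left out. HOX genes called were 2 with the term and in each of these 5 variants of it, 1 in DESeq2 without it (HOXB3), and 0 to 2 with the term and a library left out. For B412_GSK126 against B412_mock the genes called with the term were 34 without the filter, 4 in DESeq2, 1 in limma-voom, 14 on the compared groups only and 0 to 3 with a library left out, and no HOX gene was among them. For B412_GSK126 against MT_mock they were 257 with the term and 65 in DESeq2 without it. With the term they were 267 with RLE size factors, 892 without the filter, 604 in DESeq2, 318 in limma-voom, 102 on the compared groups only, and 72 to 693 with a library left out. HOX genes called there were 2 with the term, with RLE, in limma-voom and on the compared groups, 1 in DESeq2 without the term, 3 with HOXC5 added in DESeq2 or without the filter, and 0 to 2 with a library left out. A group left with 1 library was assumed to vary like the others. The cause of these shifts was not tested. Without the term, each library left out in turn gave 0 genes.

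The replicate numbers do not pair the libraries across all 3 groups. Deviations of same-numbered libraries correlated at 0.667 for MT_mock and B412_mock replicates 1 and at -0.639 for their replicates 2. Between B412_mock and B412_GSK126 the value was 0.849; there the numbers coincide with the library sets, so the fit with the set term already sets those libraries against each other. A fit with the number as a replicate block called 0 genes in each comparison, with an adjusted p of 0.636 for both HOXB3 and HOXC4 in B412_mock against MT_mock. Depth limits the genes at 0 and the traces: a count of 0 in a library allows a level of up to 0.202 to 0.236 CPM.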
